A study of Mus musculus with 12 samples.

Results

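Pericentral and Wnt-driven hepatocyte genes were followed in mouse liver across a normal diet, a high-fat diet and 2 kinds of exercise added to the high-fat diet. The 10 genes were taken by name from the count table: Glul, Cyp2e1, Cyp1a2, Rhbg, Slc1a2, Axin2, Lgr5, Tbx3, Rnf43 and Znrf3. They are 10 of the 55291 genes listed, and all 10 were among the 18305 genes that passed the filter on low counts. The animals were male C57BL/6 mice, 6 weeks old at the start, with no genetic change described beyond the strain (the genotype field of the labels repeats the diet and exercise group). The 4 groups were NC (normal diet), HFD (the high-fat diet D12492 from Research Diets), HFD+AE and HFD+RE, the last 2 being high-fat-fed mice that were trained for at least 12 weeks after 8 weeks of the diet. AE and RE name exercise programmes that are not spelled out in the labels. Each group had 3 RNA-seq libraries of whole liver, numbered 2, 4 and 5 in NC, 1, 2 and 3 in HFD, 1, 2 and 3 in HFD+AE, and 3, 4 and 5 in HFD+RE. Whether these were separate animals is not stated in the labels, and the p-values therefore describe the spread between libraries, which may be technical.

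Libraries held 44373214 to 77665729 counts assigned to genes, and no pair of them looked like 1 library deposited more than once. Among genes tested, HFD+AE 3 and HFD+RE 3 stood apart from the other libraries of their groups; a fit without both is quoted beside the results whose calls it changed. Mitochondrial ribosomal RNA took 1.76 to 3.26% of counts in HFD, against 0.708 to 0.924% in NC, 0.771 to 0.867% in HFD+AE and 0.685 to 1.71% in HFD+RE. The rank correlation, across genes within a library, of a gene's log2 deviation with its exon length ran from -0.29 to -0.15 in HFD and from 0.083 to 0.21 in NC. HFD+AE libraries had values of -0.03 to 0.29, and HFD+RE libraries of -0.31 to 0.22.

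Hepatocytes divide labour along the liver lobule, from the portal tract, where blood enters, to the central vein, where it leaves. Endothelial cells of the central vein release Wnt ligands and R-spondin, which stabilise beta-catenin in the nearest hepatocytes. Beta-catenin then switches on genes of the pericentral zone, among them the glutamine-making enzyme Glul and the cytochromes Cyp2e1 and Cyp1a2, and also genes that feed back on the signal, such as Axin2, Rnf43 and Znrf3. Lgr5, a receptor for R-spondins, keeps Rnf43 and Znrf3 from removing Wnt receptors from the cell surface.

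The 10 genes spanned a wide range of levels. Per length, as TPM (counts divided by exon length and scaled to a fixed sum per library), Cyp2e1 was the most abundant in NC at 8655 ± 596 TPM (SD, n = 3). Cyp2e1 oxidises ethanol and other small molecules, and it alone took 0.672 to 1.55% of all counts in a library. Cyp1a2, a cytochrome that oxidises caffeine and aromatic amines, stood at 691 ± 82.7 TPM in NC (SD, n = 3), close to Glul at 658 ± 120 TPM (SD, n = 3). Slc1a2, a glutamate transporter of the cell surface, followed at 46.1 TPM and the transcription factor Tbx3 at 11.1 TPM in NC. The feedback genes lay lower in NC, at 7.35 TPM for Rnf43, 5.66 TPM for Znrf3 and 3.20 TPM for Axin2. Lgr5 at 1.69 TPM and the ammonia transporter Rhbg at 0.709 TPM were the least abundant. Values below are CPM, counts scaled by library size with edgeR's TMM factors, and compare 1 gene between groups.

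**Figure D1:**
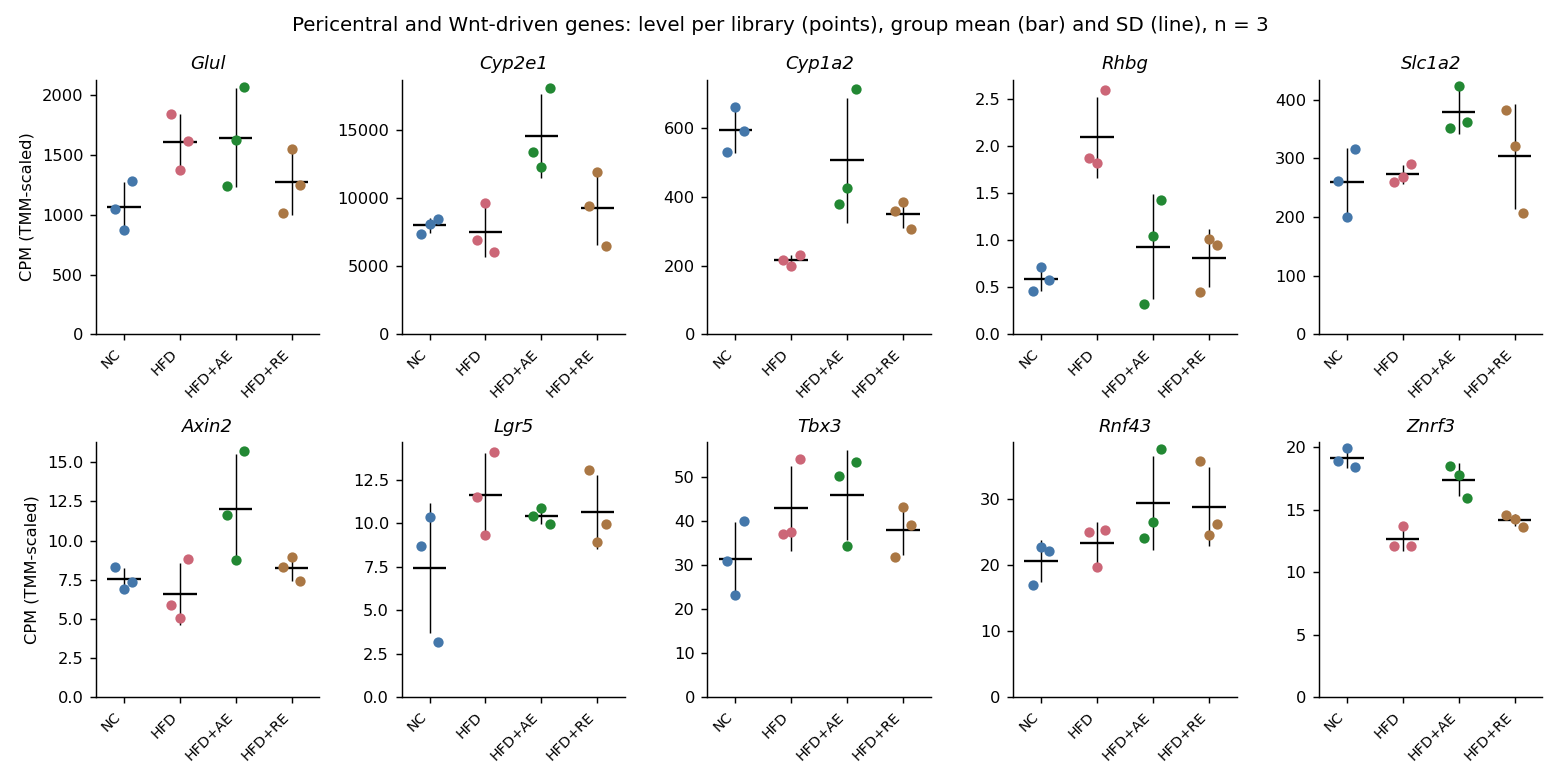
Level of each of the 10 genes in every library, in CPM on a linear axis from 0, by group. Points are libraries, bars are means and lines are SDs with 3 libraries a group. Cyp1a2 and Znrf3 are lowest in HFD, Rhbg is highest in HFD, and Cyp2e1 is highest in HFD+AE.

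High-fat feeding without exercise was compared with the normal diet (HFD against NC). The 2 groups also differed in mitochondrial ribosomal RNA and in the length correlation given above, which cannot be told apart from the diet here. Cyp1a2 fell 2.76-fold, Znrf3 fell 1.51-fold and Rhbg rose 3.57-fold, while the other 7 genes did not pass the test. Over the 10 genes the log2 change ran from -1.47 (Cyp1a2) to 1.84 (Rhbg). Passing here means a Benjamini-Hochberg adjusted p under 0.05 over all genes tested in edgeR's quasi-likelihood test. By that rule 15.6% of all genes were called between HFD and NC, 8.38% higher and 7.19% lower, beside 3 of the 10 genes, 1 higher and 2 lower. An unadjusted p under 0.05 was reached by 34.7% of all genes and by 4 of the 10. The median log2 change was 0.13 over the 10 genes and 0.01 over all genes tested. Leaving out 1 library at a time moved the number of genes called from 2851 to between 411 (without HFD 3) and 4462 (without HFD+RE 3), and that of the 10 to between 1 and 3.

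Cyp1a2 stood at 530, 663 and 592 CPM in NC 2, 4 and 5, and at 216, 199.9 and 230 CPM in HFD 1, 2 and 3. Every HFD library was therefore far below every NC library. The fitted log2 change was -1.47 (SE 0.24, edgeR adjusted p = 0.0045). In the exercised groups Cyp1a2 measured 379, 425 and 715 CPM in HFD+AE 1, 2 and 3 and 359, 384 and 306 CPM in HFD+RE 3, 4 and 5. All 6 exercised libraries were above all 3 HFD libraries; 5 of them were below every NC library, and HFD+AE 3 was above every NC library.

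Znrf3, a membrane ubiquitin ligase that removes Frizzled receptors, was the least variable of the 10 genes, with a pooled within-group SD of 0.086 on the log2 scale. It measured 18.9, 19.97 and 18.5 CPM in NC 2, 4 and 5 and 12.1, 13.7 and 12.1 CPM in HFD 1, 2 and 3, with no overlap. Its log2 change was -0.60 (SE 0.14, edgeR adjusted p = 0.021). The call was lost without NC 2 (adjusted p = 0.061), NC 4 (0.077), HFD 1 (0.097) or HFD 3 (0.10), with the length trend removed (log2 change -0.38, adjusted p = 0.077) and without the filter on low counts (0.077). In that last fit 2 of the 10 genes and 8.92% of all genes were called. Rnf43, its close relative with the same task, read 17.0, 22.7 and 22.2 CPM in NC and 25.0, 19.7 and 25.3 CPM in HFD, which overlap (log2 change 0.18, SE 0.22, edgeR adjusted p = 0.57).

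Rhbg carries ammonia across the membrane of pericentral cells. It gave 0.465, 0.718 and 0.578 CPM in NC 2, 4 and 5, that is 25, 33 and 44 counts, and 1.87, 1.82 and 2.59 CPM in HFD 1, 2 and 3, that is 96, 82 and 181 counts. The groups did not overlap, and the log2 change was 1.84 (SE 0.48, edgeR adjusted p = 0.026). The call was lost when NC 2 (adjusted p = 0.089), NC 4 (0.070), NC 5 (0.059), HFD 1 (0.074) or HFD 3 (0.11) was left out. Rhbg is uncertain for another reason: 1190 of its 1937 exonic bases are shared, on the same strand, with the gene Gm38392, which has 0 to 6 counts per library.

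Glul, which makes glutamine from glutamate and ammonia, measured 1049, 869 and 1279 CPM in NC and 1839, 1376 and 1618 CPM in HFD. No HFD library reached down to the NC range, yet the log2 change of 0.60 (SE 0.25) missed the threshold with an edgeR adjusted p of 0.11. With HFD+AE 3 and HFD+RE 3 left out of the fit, the change was 0.59 and passed (adjusted p = 0.042), which made 4 of the 10 beside 33.1% of all genes. Non-overlap is common in this comparison, since 46% of all genes tested showed it, beside 4 of the 10 genes.

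Cyp2e1 measured 7388, 8096 and 8494 CPM in NC and 6908, 9636 and 6080 CPM in HFD, a log2 change of -0.08 (SE 0.27, edgeR adjusted p = 0.84). The HFD libraries thus spread to both sides of the NC range. Slc1a2 gave 261, 200.4 and 316 CPM in NC and 260, 268 and 291 CPM in HFD, all of the latter within the NC range. Its log2 change was 0.07 (SE 0.23, edgeR adjusted p = 0.84). Axin2, a scaffold that helps degrade beta-catenin and a general Wnt target, gave 8.33, 6.92 and 7.37 CPM in NC and 5.88, 5.02 and 8.81 CPM in HFD. Its highest HFD library exceeded every NC library, and its log2 change was -0.20 (SE 0.25, edgeR adjusted p = 0.60).

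Lgr5 read 8.70, 10.4 and 3.19 CPM in NC and 11.5, 9.34 and 14.1 CPM in HFD (log2 change 0.66, SE 0.33, edgeR adjusted p = 0.18). NC 5 was well below its group. Tbx3, a transcriptional repressor expressed in pericentral hepatocytes, read 31.0, 23.3 and 40.0 CPM in NC and 37.0, 37.6 and 54.1 CPM in HFD (log2 change 0.45, SE 0.24, edgeR adjusted p = 0.20). For both genes the groups overlapped.

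Other measures moved with these changes between HFD and NC. Summed over a list of 10 hepatocyte markers, HFD libraries held 69523 to 91460 CPM and NC libraries 118860 to 129023 CPM, and 6 of the 10 markers fell (median log2 change -0.85). Alb, the albumin gene, made up most of that sum (mean 49022 CPM in HFD, 91652 CPM in NC). No marker of this list was called higher, but Apoa2 (8651 against 4192 CPM) and Ttr (6945 against 4754 CPM) had higher means in HFD. Apoa1 was level (7386 against 7431 CPM). Among all genes tested, 8.38% rose and 7.19% fell. Of 12 endothelial markers 3 fell and none rose (150 to 227 CPM in HFD against 305 to 371 in NC), of 10 stellate and fibroblast markers 6 rose (259.9 to 380 against 138 to 153 CPM), and of 11 lymphocyte markers 6 rose (12.8 to 64.9 against 9.46 to 14.8 CPM). Of 12 Kupffer cell and macrophage markers 1 fell (Cd163) and none rose (159 to 312 CPM in HFD against 313 to 517 in NC, median log2 change -1.02). None of the markers in these 5 lists was at 0 in every library of a group. With 1 library left out at a time the counts of markers called ran from 0 (without HFD 1) to 7 for hepatocytes, from 0 (without NC 2, among others) to 7 for endothelium, from 4 to 7 for stellate cells and from 1 (without NC 2) to 11 (without HFD 2) for lymphocytes, and from 0 (without HFD 1 or HFD 3) to 5 (without HFD 2) for Kupffer cells and macrophages. Of 6 adipocyte markers 2 were tested and both rose (summed list 13.0 to 51.7 CPM in HFD against 5.24 to 6.49 in NC), Cfd by 4.63 and Fabp4 by 0.76 on the log2 scale, with 1 to 2 called when 1 library was left out. The defining adipocyte genes Lep and Plin1 were at 0 in every HFD and NC library, and Adipoq was under 0.05 CPM in each. Of 6 tested erythroid markers 1 fell (273 to 494 against 159 to 301 CPM, overlapping), while none of the neutrophil (8.10 to 14.8 against 5.64 to 7.08 CPM) or cholangiocyte markers (53.5 to 70.8 against 36.2 to 54.9 CPM) passed. Fewer cells of a type and less RNA per cell cannot be told apart in bulk liver, and the part of these shifts and of mitochondrial RNA in the changes above was not tested. With the length trend removed, Cyp1a2 (log2 change -1.72, adjusted p = 0.0012) and Rhbg (1.57, adjusted p = 0.034) were still called, and Znrf3 was not.

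Set against albumin messenger RNA instead of all counts, a ratio chosen after the values were seen and given with no test, the picture was not the same for every gene. Alb itself fell in HFD (log2 change -0.90, edgeR adjusted p = 0.031), and lost its call when any of NC 2 (0.061), NC 4 (0.097), NC 5 (0.072), HFD 1 (0.11) or HFD 3 (0.14) was left out. Per 1000 Alb counts, Cyp1a2 stood at 6.67, 6.96 and 5.91 in NC and 4.34, 3.30 and 6.26 in HFD, so the groups overlapped. Znrf3, lower in HFD in CPM, had the higher mean there per 1000 Alb counts (0.266 against 0.210 in NC), with groups that overlapped (0.227 to 0.329 against 0.184 to 0.237). Rhbg was higher in HFD on both scales, at 0.030 to 0.071 against 0.0058 to 0.0075 per 1000 Alb counts. Glul, which overlapped on neither scale, ranged from 22.7 to 44.1 in HFD and from 9.12 to 13.2 in NC per 1000 Alb counts. Cyp2e1 (139 to 166 against 84.7 to 93.0) and Slc1a2 (4.43 to 7.93 against 2.10 to 3.28), which did not pass the test in CPM, were also above NC in every HFD library on this scale. In all, 7 of the 10 genes were higher in HFD with no overlap, the rest being Lgr5, Tbx3 and Rnf43 besides Rhbg and Glul. Of the 18808 genes counted in every NC and HFD library 61.6% did the same, so the share among the 10 is near that of all genes.

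**Figure D2:**
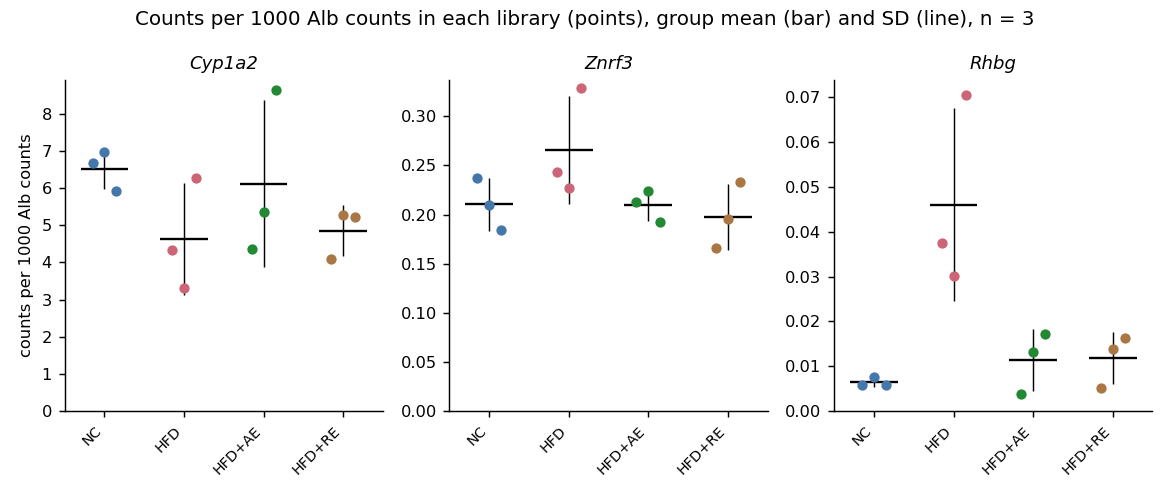
Counts of Cyp1a2, Znrf3 and Rhbg per 1000 counts of Alb in every library (points), with the group mean (bar) and SD (line), 3 libraries a group, on linear axes from 0. Rhbg is highest in HFD, Cyp1a2 in HFD overlaps NC, and the HFD mean of Znrf3 (0.266) lies above that of NC (0.210) with libraries that overlap.

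The HFD+AE group against HFD asks whether training of the first kind alters the genes under a continued high-fat diet. None of the 10 genes passed the test. Cyp2e1 was 1.93-fold, Cyp1a2 2.35-fold and Axin2 1.83-fold above HFD, each with an adjusted p just over the threshold, while Glul had a ratio of 1.02. edgeR called 0.0492% of all genes in this comparison, beside 0 of the 10. At an unadjusted p under 0.05 it took 5 of the 10 genes and 26.4% of all genes, and DESeq2 called 4 of the 10 and 12.1% of all genes.

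Cyp1a2 had a log2 difference of 1.23 (SE 0.24, edgeR adjusted p = 0.054), from the library values given above. Cyp2e1 measured 13349, 12277 and 18067 CPM in HFD+AE 1, 2 and 3, all above the HFD maximum of 9636 CPM. Its log2 difference was 0.95 (SE 0.27, edgeR adjusted p = 0.072). Axin2 measured 11.6, 8.77 and 15.7 CPM in HFD+AE, and its lowest library fell just below the highest of HFD (log2 difference 0.87, SE 0.25, edgeR adjusted p = 0.073). Znrf3 at 18.5, 17.8 and 15.9 CPM was above every HFD library (log2 difference 0.46, SE 0.14, edgeR adjusted p = 0.086). For HFD+AE 3 this depended on the scaling, as that library had the lowest TMM factor (0.859). As a share of its counts, Znrf3 in HFD+AE 3 (0.001367%) was below every HFD library (0.001387 to 0.001399%). DESeq2 called these 4 genes, with adjusted p of 0.00016 for Cyp1a2, 0.0095 for Cyp2e1, 0.022 for Axin2 and 0.021 for Znrf3. edgeR without the filter on low counts called Cyp1a2 (0.0031), Cyp2e1 (0.038) and Axin2 (0.040), beside 3.04% of all genes. Cyp1a2 also passed with only the 2 groups fitted (0.047, beside 3.75% of all genes) and with the length trend removed (0.042, beside 0.519%).

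Slc1a2 reached 353, 423 and 362 CPM in HFD+AE, above every HFD library (log2 difference 0.47, edgeR adjusted p = 0.22). Rhbg was below every HFD library, at 0.327, 1.05 and 1.42 CPM (log2 difference -1.18, SE 0.46, edgeR adjusted p = 0.14). Non-overlap held for 5 of the 10 genes and for 32% of all genes tested. Glul gave 1236, 1627 and 2067 CPM in HFD+AE, around the HFD values (log2 difference 0.03, edgeR adjusted p = 0.95). The others overlapped HFD too: Lgr5 at 10.4, 10.9 and 9.95 CPM, Tbx3 at 50.3, 34.4 and 53.4 CPM, and Rnf43 at 24.1, 26.6 and 37.6 CPM.

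In CPM the library HFD+AE 3 held the group's highest value for Glul, Cyp2e1, Cyp1a2, Rhbg, Axin2, Tbx3 and Rnf43. In TPM the highest was HFD+AE 2 for Glul (1109 against 1048 in HFD+AE 3) and HFD+AE 1 for Tbx3 (18.5 against 15.5). With HFD+AE 3 and HFD+RE 3 both left out, Cyp1a2 (log2 difference 0.91, adjusted p = 0.0068), Znrf3 (0.53, adjusted p = 0.014) and Rhbg (-1.61, adjusted p = 0.027) passed edgeR's test, 3 of the 10 beside 22.5% of all genes. In that fit Glul turned to -0.16 and Tbx3 to -0.01. The summed hepatocyte markers also stood higher in HFD+AE than in HFD, at 104684 to 122982 CPM. Alb made up most of this sum (mean 82981 against 49022 CPM). The list median log2 difference was 0.54, while Apoa2 (5559 against 8651 CPM) and Ttr (6035 against 6945 CPM) had lower means. Apoa1 was level (7325 against 7386 CPM). Endothelial (284 to 439 against 150 to 227 CPM) and Kupffer cell and macrophage markers (346 to 460 against 159 to 312 CPM) also summed higher. Lymphocyte (7.28 to 11.9 against 12.8 to 64.9 CPM) and neutrophil markers (3.07 to 4.35 against 8.10 to 14.8 CPM) were lower. The summed adipocyte and cholangiocyte lists were lower too. Among cholangiocyte markers Spp1 (19.8 against 32.4 CPM) and Sox9 (4.30 against 6.95 CPM) had lower means in HFD+AE. Krt19 (0.564 against 0.490 CPM), Krt7 (0.440 against 0.297 CPM) and Epcam (1.16 against 0.733 CPM) had higher means, and the list median log2 difference was 0.11. No marker of these lists passed. The part of these shifts, and of the lower mitochondrial ribosomal RNA in HFD+AE, in the differences above was not tested.

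**Figure D3:**
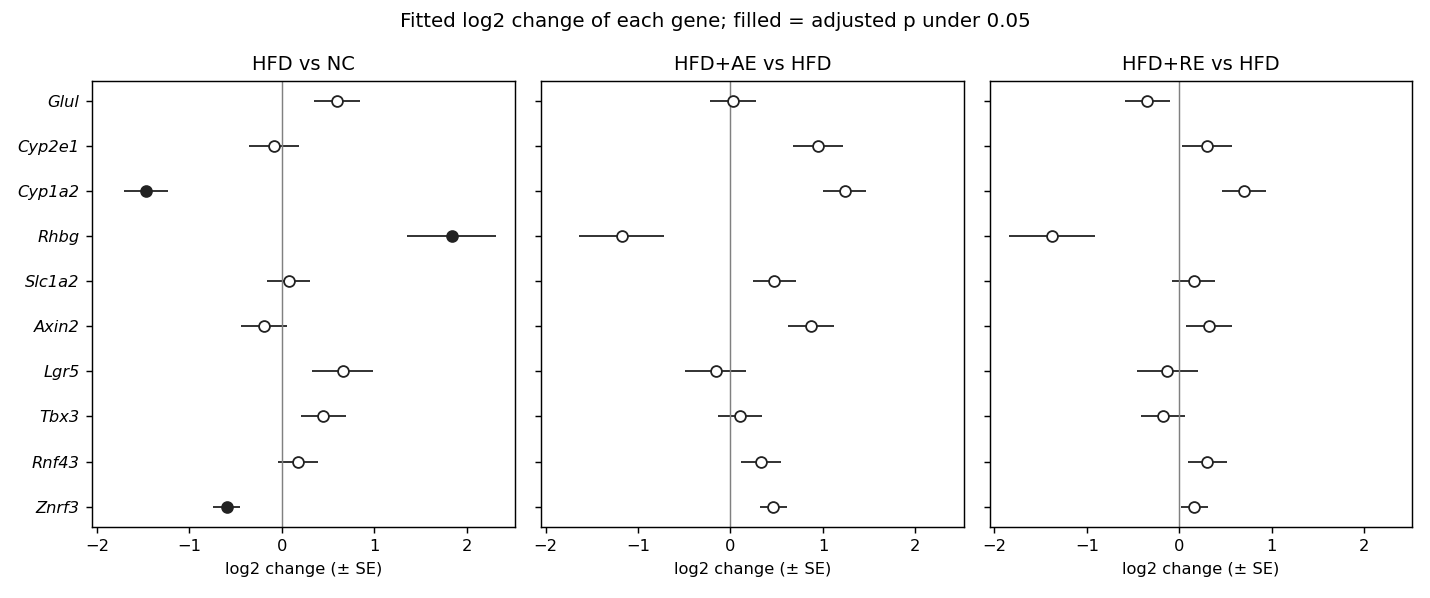
Fitted log2 difference of each gene (points) with its SE (lines) for HFD against NC, HFD+AE against HFD and HFD+RE against HFD; a filled point had an edgeR adjusted p under 0.05. In all 3 genes are filled, all in HFD against NC: Cyp1a2 (-1.47), Znrf3 (-0.60) and Rhbg (1.84).

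The HFD+RE group against HFD puts the same question for training of the other kind. None of the 10 genes passed the test (0 called). edgeR called 0.0109% of all genes. At an unadjusted p under 0.05 it took 2 of the 10 genes and 8.77% of all genes, and DESeq2 called 0 of the 10 and 1.2% of all genes. Cyp1a2 (log2 difference 0.70, SE 0.23, edgeR adjusted p = 0.38) and Rhbg (-1.37, SE 0.47, edgeR adjusted p = 0.39) were the genes whose libraries did not overlap those of HFD, as held for 14.1% of all genes. Rhbg stood at 0.454, 1.02 and 0.949 CPM in HFD+RE 3, 4 and 5.

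The remaining 8 genes overlapped HFD. Glul measured 1014, 1548 and 1246 CPM in HFD+RE, with only HFD+RE 4 inside the HFD range (log2 difference -0.34, edgeR adjusted p = 0.71). Cyp2e1 spread from 6506 to 11923 CPM (log2 difference 0.30) and Slc1a2 from 207 to 383 CPM (0.15). Axin2 ran from 7.41 to 8.97 CPM, Lgr5 from 8.96 to 13.1 CPM, Tbx3 from 31.8 to 43.1 CPM, Rnf43 from 24.6 to 35.8 CPM and Znrf3 from 13.6 to 14.6 CPM. The log2 differences of these 5 genes lay between -0.17 (Tbx3) and 0.32 (Axin2). Hepatocyte markers summed to 97919 to 118402 CPM in HFD+RE, above every HFD library. Most of this sum was Alb (mean 73180 CPM against 49022 CPM in HFD). Endothelial markers (140 to 327 CPM) and Kupffer cell and macrophage markers (87.7 to 439 CPM) overlapped HFD. The part of such shifts in the differences between HFD+RE and HFD was not tested.

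Set directly against HFD+AE, HFD+RE was lower for 9 of the 10 genes, with a median log2 difference of -0.31 over the 10 and 0.01 over all genes. Of all genes tested 51.2% were higher in HFD+RE. The 10 genes were read in the same libraries and are not independent of each other. No gene in the whole table passed edgeR's test here (0% called), whereas 1468 genes (8.02%) had an unadjusted p under 0.05 and DESeq2 called 27 genes. Cyp2e1 had a log2 difference of -0.65 (SE 0.27) and Znrf3 of -0.30 (SE 0.14), each with an edgeR adjusted p of 0.61 and with no overlap, as for 11.3% of all genes. In TPM the Znrf3 libraries did overlap (HFD+RE 3 at 4.80, HFD+AE 3 at 3.87). Cyp1a2 (-0.53) and Axin2 (-0.55) also had unadjusted p under 0.05, like Cyp2e1. No difference between the training programmes was therefore shown for any of the 10 genes by the adjusted test. With HFD+AE 3 and HFD+RE 3 left out, Rhbg (0.52), Lgr5 (-0.17) and Rnf43 (0.00) changed sign, and 4170 of all genes passed.

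The trained groups were also set against NC, which shares its libraries with the first comparison. For HFD+AE edgeR called 1.38% of all genes and none of the 10. At an unadjusted p under 0.05 it took 6 of the 10 and 14% of all genes, and DESeq2 called Cyp2e1 alone of the 10 (adjusted p = 0.031) and 4.84% of all genes. Cyp2e1 was 1.82-fold above NC (log2 difference 0.87, SE 0.27, edgeR adjusted p = 0.14). Axin2 (0.67), Slc1a2 (0.55) and Rnf43 (0.51) likewise had every HFD+AE library above every NC library, as 21.8% of all genes had no overlap. For HFD+RE edgeR called 3.96% of all genes and none of the 10, with 3 of the 10 and 24.5% of all genes at an unadjusted p under 0.05. Cyp1a2 (-0.77, edgeR adjusted p = 0.078) and Znrf3 (-0.43, edgeR adjusted p = 0.099) were below NC and Rnf43 (0.49, edgeR adjusted p = 0.19) above it with no overlap, beside 26.1% of all genes. DESeq2 called Cyp1a2 (adjusted p = 0.017) and Znrf3 (adjusted p = 0.019) there, beside 11.7% of all genes. With HFD+AE 3 and HFD+RE 3 left out edgeR did so too (0.0066 and 0.019), beside 31.7% of all genes, and with the length trend removed it called Cyp1a2 (0.031), beside 4.38%.

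Ranked by group mean, 6 of the 10 genes were highest in HFD+AE, namely Glul, Cyp2e1, Slc1a2, Axin2, Tbx3 and Rnf43. The share of all genes highest in HFD+AE was not counted. For Glul and Tbx3 that rank in CPM rested on HFD+AE 3. Without that library both lay below HFD, with log2 differences of -0.18 and -0.026. Rhbg and Lgr5 were highest in HFD, and Cyp1a2 and Znrf3 in NC. Most neighbours in these orders overlapped. The exceptions were HFD and HFD+RE for Cyp1a2, HFD+RE and HFD+AE for both Cyp2e1 and Znrf3, and HFD+AE and HFD for Rhbg, none of which passed the test. Within groups the spread was widest for Rhbg (pooled SD 0.64, log2 scale) and Lgr5 (0.50), and 0.27 to 0.32 for the other genes apart from Znrf3.

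Of the 10 genes 6 have an entry in the RefSeq promoter table (GRCm38.p6, the same build as mm10), with 7 windows of 250 bases before a transcription start. These were searched on both strands for CTTTGA (reverse strand TCAAAG), the core letters bound by the TCF and LEF factors that carry beta-catenin. Slc1a2 (2 matches), Cyp2e1 (1, at 135 bases before the RefSeq start) and Cyp1a2 (1, at 243 bases before the RefSeq start) held it, and Glul, Axin2 and Rnf43 did not. RefSeq starts can differ from the gene starts of the count table, given below. The windows of Cyp2e1 and Cyp1a2 run past those gene starts. That of Slc1a2 lies inside the gene, and the 168 bases before its first exonic base hold 1 match. Of 32851 RefSeq windows of this length, 13.8% hold a match, which is a description of letters and not of a bound site. The windows of the cytochromes, of which Cyp1a2 passed the test in HFD against NC and Cyp2e1 did not, are printed with that of Glul and of Axin2, the classical pericentral and the general Wnt target, as far as they lie outside annotated exons. Sequences run 5′ to 3′ along the gene's strand with the match in capitals, at chr9:57683704-57683905 (minus strand) for Cyp1a2, chr7:140763569-140763738 (plus) for Cyp2e1, chr1:153899679-153899928 (plus) for Glul and chr11:108920099-108920348 (plus) for Axin2.
Cyp1a2: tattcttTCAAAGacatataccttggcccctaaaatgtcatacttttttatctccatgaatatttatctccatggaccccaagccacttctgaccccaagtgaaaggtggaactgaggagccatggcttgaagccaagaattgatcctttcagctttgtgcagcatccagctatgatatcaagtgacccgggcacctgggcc
Cyp2e1: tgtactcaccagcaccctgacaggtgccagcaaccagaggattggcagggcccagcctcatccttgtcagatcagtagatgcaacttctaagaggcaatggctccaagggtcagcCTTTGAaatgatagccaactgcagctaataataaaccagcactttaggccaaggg
Glul: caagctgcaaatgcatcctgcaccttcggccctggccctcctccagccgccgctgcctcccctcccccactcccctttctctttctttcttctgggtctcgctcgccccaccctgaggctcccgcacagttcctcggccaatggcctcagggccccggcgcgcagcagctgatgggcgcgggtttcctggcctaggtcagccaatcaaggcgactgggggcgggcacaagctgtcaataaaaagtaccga
Axin2: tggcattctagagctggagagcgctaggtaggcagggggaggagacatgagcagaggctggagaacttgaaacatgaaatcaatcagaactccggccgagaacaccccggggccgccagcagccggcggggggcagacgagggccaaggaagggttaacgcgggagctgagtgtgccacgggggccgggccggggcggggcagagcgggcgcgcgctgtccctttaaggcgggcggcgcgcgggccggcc
The windows of Glul and Axin2 are richer in G and C (64.8 and 69.2%) than those of Cyp1a2 and Cyp2e1 (47.2 and 48.8%). The genes themselves span chr9:57676937-57683703 for Cyp1a2, chr7:140763739-140774987 for Cyp2e1, chr1:153899944-153909723 for Glul and chr11:108920349-108950783 for Axin2 in mm10, as the count table gives them. The other 6 lie at chr3:88242874-88254709 (Rhbg), chr2:102658659-102790784 (Slc1a2), chr10:115450311-115587780 (Lgr5), chr5:119670669-119684724 (Tbx3), chr11:87662722-87735539 (Rnf43) and chr11:5276324-5444847 (Znrf3). Slc1a2, Axin2, Glul and Tbx3 share 189, 209, 209 and 115 exonic bases with other annotated genes, a small part of each.

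Other genes of the pericentral zone were taken from a list of 22, all tested. In HFD against NC 4 rose, 3 fell and 15 did not pass, with a median log2 change of 0.23 beside 0.01 over all genes. The share called among all genes was 15.6%, with 8.38% higher and 7.19% lower. Cyp2a5, a coumarin-oxidising cytochrome, rose by 1.21 (log2, edgeR adjusted p = 0.017), Aldh3a2, a fatty aldehyde dehydrogenase, by 0.88, Slc13a3, a dicarboxylate transporter, by 1.47, and Nr1i3, the nuclear receptor CAR, by 0.73. Avpr1a, the vasopressin receptor, fell from 12.4 to 45.9 CPM in NC to 6.48 to 7.53 CPM in HFD (log2 change -2.13, edgeR adjusted p = 0.0045), and kept its call in all 19 alternatives. Cyp2c54 (-1.25) and the aromatic amino acid transporter Slc16a10 (-0.72) fell too. The call of Cyp2a5 was lost without NC 2 (adjusted p = 0.066), NC 4 (0.077), HFD 1 (0.071) or HFD 3 (0.080), and that of Slc16a10 without NC 4 (0.066), HFD 1 (0.079) or HFD 3 (0.086). Aldh3a2 lost its call without NC 2 (0.092), NC 4 (0.067) or HFD 1 (0.082), and Nr1i3 without NC 2 (0.065), NC 4 (0.077) or HFD 3 (0.083). For Slc13a3 the libraries were NC 4 (0.095), NC 5 (0.067), HFD 1 (0.065) and HFD 3 (0.11), and for Cyp2c54 NC 4 (0.074), HFD 1 (0.087) and HFD 3 (0.094). Oat, ornithine aminotransferase, was at -0.29 (edgeR adjusted p = 0.43), Gulo, which makes vitamin C, at 0.27 (edgeR adjusted p = 0.37) and the secreted protein gene Lect2 at 0.59 (edgeR adjusted p = 0.060). Lect2 passed with DESeq2 (0.033), with only the 2 groups fitted (0.018) and with HFD+AE 3 and HFD+RE 3 left out (0.023).

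In HFD+AE against HFD the same list had a median log2 difference of 0.51, beside 0.00 over all genes and 0.40 over the 10 genes, with 1 gene called. That gene was Cyp2c54 (log2 difference 1.87, SE 0.30, edgeR adjusted p = 0.048), which stood at 396 to 551 CPM in HFD+AE and 98.1 to 180 CPM in HFD. It belongs to a family of near-identical cytochrome genes that share reads, so its count is uncertain, and the call was lost with RLE factors (adjusted p = 0.051). It was lost as well without any 1 of 8 libraries, HFD 3 giving the highest adjusted p (0.25) and NC 5 the lowest (0.054); the others were NC 2, NC 4, HFD 1, HFD+AE 1, HFD+AE 2 and HFD+RE 4. Summed over the list, HFD+AE libraries held 11790 to 12065 CPM, above every library of HFD (7665 to 9052), NC (6873 to 8478) and HFD+RE (6540 to 9805). HFD+RE against HFD had a list median of 0.02, and none of the 22 genes passed.

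The periportal list of 18 genes, from the other end of the lobule, had 1 gene rise, 2 fall and 15 not pass in HFD against NC, with a median log2 change of -0.49. That is near the share of all genes called (15.6%). Apoa4, an apolipoprotein of fat transport, rose from 24.3 to 50.9 CPM in NC to 204 to 392 CPM in HFD (log2 change 2.93, edgeR adjusted p = 0.011) and kept its call in all alternatives. Cps1, the entry enzyme of the urea cycle, fell by 2.28 on the log2 scale (edgeR adjusted p = 0.018), and Cdh1, the adhesion protein E-cadherin, fell by 2.54 (edgeR adjusted p = 0.020). Leaving out HFD 3 ended the calls of Cps1 (adjusted p = 0.094) and Cdh1 (0.10), as did NC 4 (0.052 and 0.071), and so did HFD 1 for Cps1 (0.086) and NC 2 for Cdh1 (0.057). Both calls were also lost without the filter on low counts (0.068 and 0.080). Cyp2f2, the periportal cytochrome, had a log2 change of -0.53 (edgeR adjusted p = 0.10), and passed with HFD+AE 3 and HFD+RE 3 left out (0.026) or the length trend removed (0.025). No gene of the list passed in HFD+AE or HFD+RE against HFD, where the medians were 0.32 and 0.40. Summed over the periportal list, HFD+AE libraries held 19389 to 20986 CPM, above every HFD library (12756 to 15041), as for the pericentral list. NC libraries held 18647 to 22765 CPM and HFD+RE libraries 16920 to 21639 CPM.

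**Figure D4:**
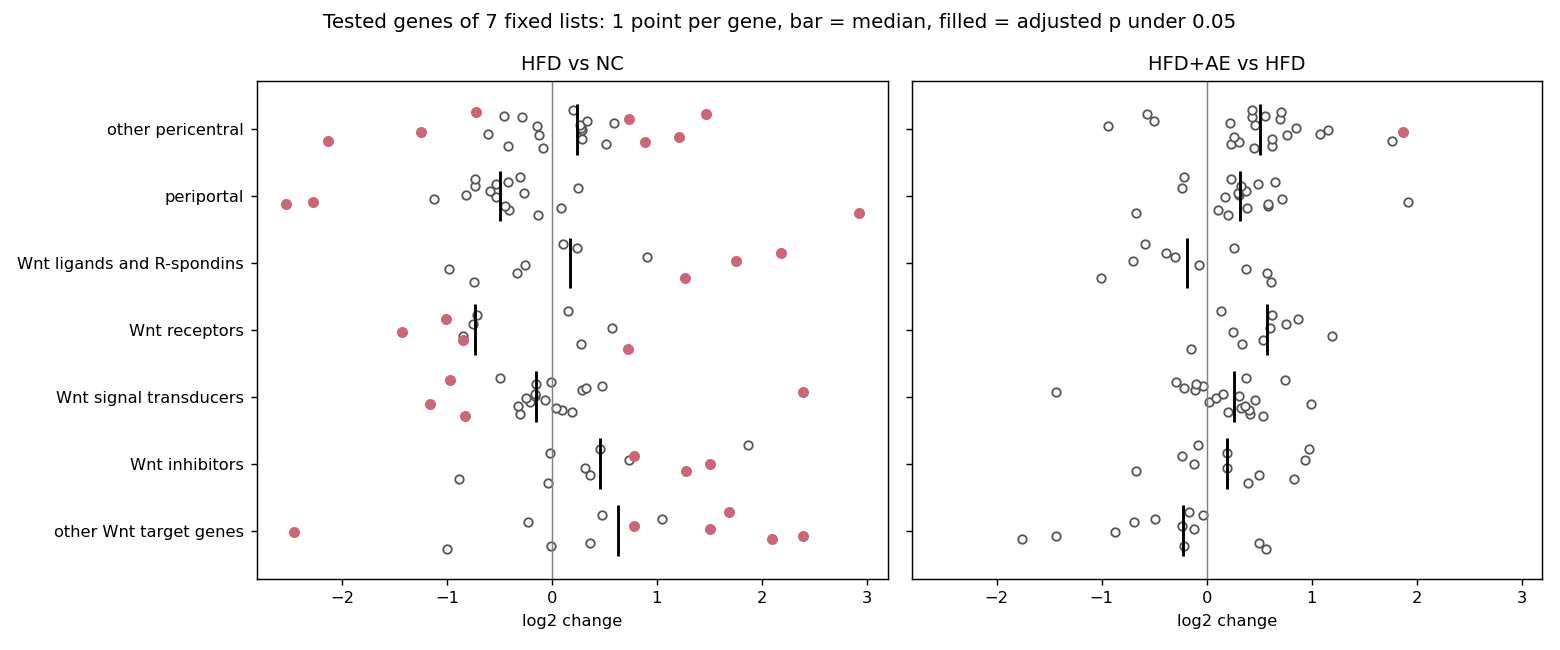
Log2 change of every tested gene of 7 lists, 1 point a gene, for HFD against NC (left) and HFD+AE against HFD (right); bars are list medians and filled points passed an edgeR adjusted p of 0.05. In HFD against NC the receptors have a median of -0.73 and the other Wnt targets of 0.63; on the right 1 point is filled, Cyp2c54.

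Upstream of the 10 genes, 10 of 14 Wnt ligands and R-spondins could be tested, and in HFD against NC 3 rose, none fell and 7 did not pass. Beside them, 15.6% of all genes were called. Wnt5b, mostly linked to beta-catenin-independent signalling, rose from 2.57 to 5.13 CPM in NC to 12.9 to 18.8 CPM in HFD (log2 change 2.18, edgeR adjusted p = 0.0046), a call kept in all alternatives. Wnt4 rose by 1.75 (edgeR adjusted p = 0.025) and Rspo3, the R-spondin of central vein endothelium, by 1.26 (edgeR adjusted p = 0.018). Rspo3 stood at 3.26 to 4.76 CPM in NC, 5.80 to 11 CPM in HFD and 4.41 to 4.72 CPM in HFD+AE. Its call was lost without NC 2 (adjusted p = 0.067), NC 4 (0.074), HFD 1 (0.076) or HFD 3 (0.090), and that of Wnt4 without NC 2 (0.052), NC 4 (0.087), NC 5 (0.065), HFD 1 (0.089) or HFD 3 (0.10). The central vein ligands Wnt2 (log2 change -0.98, edgeR adjusted p = 0.074) and Wnt9b (0.11, adjusted p = 0.87) did not pass. Wnt2 did pass with DESeq2 (0.031), with only the 2 groups fitted (0.020) and with HFD+AE 3 and HFD+RE 3 left out (0.043).

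Among Wnt receptors and co-receptors, of which 10 of 13 were tested, 1 rose and 3 fell in HFD against NC, with a median log2 change of -0.73. Beside them, 15.6% of all genes were called. Lrp5, the co-receptor, fell from 57.4 to 106 CPM in NC to 41.3 to 49.2 CPM in HFD (log2 change -1.004, edgeR adjusted p = 0.022). The Frizzled receptors Fzd5 (-0.85) and Fzd7 (-1.43) fell and Fzd1 (0.72) rose, and Lgr4, the R-spondin receptor of most hepatocytes, was at -0.76 (edgeR adjusted p = 0.078). Lgr4 passed with DESeq2 (0.047), without the filter on low counts (0.047) and with HFD+AE 3 and HFD+RE 3 left out (0.033). The call of Lrp5 was lost with the length trend removed (adjusted p = 0.060) and without NC 2 (0.072), NC 4 (0.084), HFD 1 (0.089) or HFD 3 (0.098). Those of Fzd1, Fzd5 and Fzd7 were lost without NC 4 (0.13, 0.17 and 0.14), HFD 1 (0.10, 0.15 and 0.12) or HFD 3 (0.13, 0.19 and 0.13), and also, for Fzd1 and Fzd5, without NC 2 (0.11 and 0.089), and for Fzd5 without HFD+AE 1 (0.056) or HFD+AE 2 (0.060) or with the length trend removed (0.059). Fzd7 read 14.9 to 63.3 CPM in NC and 11.4 to 13.9 CPM in HFD, and its change was -0.57 without NC 4. It lost its call too without the filter on low counts (0.086) and with only the 2 groups fitted (0.074). In HFD+AE against HFD the receptor median was 0.57 with none called.

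Of 20 signal transducers 1 rose, 3 fell and 16 did not pass in HFD against NC (median log2 change -0.15), beside 15.6% of all genes called. Ctnnb1, which encodes beta-catenin, read 129 to 166 CPM in NC and 41.8 to 103 CPM in HFD (log2 change -1.16, edgeR adjusted p = 0.046), and fell in company with Apc (-0.82) and Tnks (-0.97), 2 genes that limit beta-catenin and Axin proteins respectively. The Ctnnb1 call was among the least stable, lost without NC 2 (adjusted p = 0.11), NC 4 (0.12), NC 5 (0.062), HFD 1 (0.16), HFD 3 (0.19), HFD+AE 1 (0.057) or HFD+AE 2 (0.061), and without the filter on low counts (0.072). Apc and Tnks lost theirs without NC 2 (0.099 and 0.096), NC 4 (0.12 for both), NC 5 (0.064 and 0.079), HFD 1 (0.15 and 0.16), HFD 3 (0.17 and 0.18) or HFD+AE 2 (0.056 and 0.059). Lef1, a TCF-family factor prominent in lymphocytes, rose by 2.40 (edgeR adjusted p = 0.021). It is a low-count gene, at 0.174 to 0.204 CPM in NC and 0.356 to 1.62 CPM in HFD. Whether the rise of lymphocyte markers given above has a part in this was not tested. The Lef1 call was lost without NC 2 (0.065), NC 4 (0.077), HFD 1 (0.070) or HFD 3 (0.11). Tcf7l2, the main TCF factor of hepatocytes, had a log2 change of -0.0049 (edgeR adjusted p = 0.99).

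Inhibitors and further targets of the pathway overlap as lists, sharing Nkd1 and Notum among others. Of 11 tested inhibitors 3 rose and none fell (median log2 change 0.46), and of 12 other Wnt targets 5 rose and 1 fell (median 0.63). Beside these lists, 15.6% of all genes were called in HFD against NC. Nkd1, a cytoplasmic antagonist, read 2.86 to 3.57 CPM in NC and 5.45 to 11.4 CPM in HFD (log2 change 1.51, edgeR adjusted p = 0.020). Notum, an enzyme that inactivates Wnt proteins, rose by 0.79 (edgeR adjusted p = 0.047), and Tnfrsf19, a receptor of the tumour necrosis factor family, by 1.68 (edgeR adjusted p = 0.0058). Frzb, a secreted Wnt binder, rose by 1.28 (edgeR adjusted p = 0.024), and the receptor tyrosine kinase gene Ephb2 by 2.10 (edgeR adjusted p = 0.046). Both rest on low counts. Frzb read 0.539 to 0.740 CPM in NC and 1.23 to 2.02 CPM in HFD, and Ephb2 0.131 to 0.261 and 0.467 to 1.27 CPM. Myc, a growth regulator with many inputs besides Wnt, fell by 2.45 (edgeR adjusted p = 0.030), and Sp5, a direct Wnt target, was at 1.05 (edgeR adjusted p = 0.18). Myc spanned 2.12 to 24.6 CPM in NC and 2.32 to 3.51 CPM in HFD, so the groups overlapped. Sp5 passed with only the 2 groups fitted (0.045) and with HFD+AE 3 and HFD+RE 3 left out (0.030). The Nkd1 call was lost without NC 2 (0.067), NC 4 (0.059), HFD 1 (0.074) or HFD 3 (0.096). The Notum call was lost with the length trend removed (0.067) and without any 1 of 8 libraries, with adjusted p from 0.052 (HFD+RE 4) to 0.20 (HFD 3); the others were NC 2, NC 4, NC 5, HFD 1, HFD+AE 1 and HFD+AE 2. Frzb lost its call without NC 2 (0.076), NC 4 (0.061), NC 5 (0.060), HFD 1 (0.11) or HFD 3 (0.062), and Myc without NC 4 (0.098), NC 5 (0.076), HFD 1 (0.10) or HFD 3 (0.14). The Myc call was lost as well without the filter on low counts (0.11), with only the 2 groups fitted (0.067) and with HFD+AE 3 and HFD+RE 3 left out (0.057). Ephb2 lost it without any of 8 libraries, with adjusted p from 0.051 (HFD+AE 2) to 0.20 (HFD 1), the others being NC 2, NC 4, NC 5, HFD 3, HFD+RE 4 and HFD+RE 5. Tnfrsf19 kept its call in every fit that left out 1 library, but lost it with a term for the replicate number in the fit (0.083).

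Targets of the aryl hydrocarbon receptor were counted because Cyp1a2 is one of them as well as a pericentral gene. Of 7 tested 1 rose in HFD against NC and 6 did not pass, beside 15.6% of all genes called. Nqo1, a quinone reductase that is also a target of the oxidative stress factor Nrf2, rose by 1.48 (log2, edgeR adjusted p = 0.0051), while Cyp1a1, the nearest relative of Cyp1a2, was at -0.15 (edgeR adjusted p = 0.86) and the receptor gene Ahr at -0.08 (edgeR adjusted p = 0.82). Ugt1a6b, a glucuronidating enzyme, stood at 37.9 to 50.4 CPM in NC, 4.63 to 28.8 CPM in HFD and 48.9 to 55.5 CPM in HFD+AE. It thus lay lower in every HFD library than in any NC library, with a log2 change of -1.60 that did not pass (edgeR adjusted p = 0.083). Its neighbour Ugt1a6a was at 0.63 (edgeR adjusted p = 0.081), but genes of that family share exons and their counts are uncertain. Tiparp (-0.096, adjusted p = 0.80) and Cyp1b1 (0.62, adjusted p = 0.41) did not pass either.

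No gene of these Wnt and aryl hydrocarbon lists passed in HFD+AE or HFD+RE against HFD. Against NC, Wnt5b was higher in HFD+AE (log2 difference 1.79, edgeR adjusted p = 0.028) and in HFD+RE (1.88, adjusted p = 0.015), as did Tnfrsf19 (1.52, adjusted p = 0.025, and 1.49, adjusted p = 0.017). Nr1i3 stood at 73.5 to 93.5 CPM in HFD+AE against 28.2 to 31.7 CPM in NC (log2 difference 1.43, edgeR adjusted p = 0.0035). In HFD+AE the pericentral Cyp2a5 (1.47) and Aldh3a2 (1.19), the receptor Fzd8 (1.18) and Nqo1 (1.12) were also higher than in NC and Myc lower (-3.32), with edgeR adjusted p from 0.024 for Aldh3a2 to 0.046 for Nqo1. In HFD+RE Cyp2a5 (1.22), Nr1i3 (0.74), Apoa4 (2.73) and Bcl9 (0.74), which encodes a beta-catenin cofactor, were higher than in NC and Wnt2 lower (-1.57), with edgeR adjusted p from 0.024 for Apoa4 to 0.042 for Bcl9. Of these calls against NC, that of Nr1i3 in HFD+AE held without any 1 library, and each of the others was lost without at least NC 4, with adjusted p between 0.076 (Wnt5b, HFD+RE) and 0.20 (Nqo1, HFD+AE). With only the 2 groups fitted, all of the named HFD+AE calls except that of Nr1i3 were lost (adjusted p 0.054 for Cyp2a5 to 0.12 for Fzd8), and in HFD+RE those of Cyp2a5, Nr1i3, Bcl9, Wnt2 and Wnt5b (0.071 for Wnt5b to 0.11 for Bcl9). Without the filter on low counts Myc in HFD+AE (0.16) and Apoa4 (0.091) and Bcl9 (0.083) in HFD+RE were lost, and with HFD+AE 3 and HFD+RE 3 left out so were Myc (0.18) and Nqo1 (0.075) in HFD+AE. All 3 comparisons with NC use the same NC libraries, so these differences are not independent of the diet comparison.

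Across the 12 libraries the 10 genes form 45 pairs, of which 32 had a positive correlation of log2 CPM. This is a description over libraries that share group, depth and scaling. Cyp1a2 and Znrf3 were the most alike (Pearson r = 0.81), and Rhbg and Znrf3 the most opposed (r = -0.73). Glul went with Tbx3 (r = 0.71) and Rhbg (r = 0.69), and Cyp2e1 with Slc1a2 and with Axin2 (r = 0.67 for both). Outside the 10 genes, Glul was most alike to Gm6135 (r = 0.92), Esd-ps (r = 0.91) and Bcam (r = 0.90), over the same 12 libraries. Cyp1a2 was most alike to Amigo1 (r = 0.96), Bop1 (r = 0.95) and Mars1 (r = 0.93), and Axin2 to Zc3h4 (r = 0.89), Nfatc1 (r = 0.87) and Pusl1 (r = 0.87).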

How the data were processed

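Raw counts per gene were deposited for 12 libraries; per the file headers they were made with featureCounts 2.0.6, and per the submitters' processing notes reads were handled with fastp and aligned with HISAT2 2.2.1 to mm10. The sources used here do not give the strand setting, how multiply mapped reads were treated or which annotation release was used, so antisense and overlapping genes (Rhbg above all) may share counts. Of counts from 1 to 20, 66.7 to 76.6% were even in a library; whether both reads of a pair were counted is not given in the sources used here. Total counts per library, 44373214 to 77665729, set the precision, which is lowest for Rhbg.

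All 4 groups were fitted together with edgeR 4.0.16 in R 4.3.3 (TMM factors, filterByExpr by group, robust quasi-likelihood F-test), with Benjamini-Hochberg adjustment over 18305 genes and a threshold of 0.05. The SE is the log2 change divided by the square root of F. The script was tested on simulated data. Alternatives were RLE factors, DESeq2 1.42.0, no filter on low counts, only the 2 groups compared, HFD+AE 3 and HFD+RE 3 left out, the trend with exon length removed, a replicate block, and each library left out. Genes named were the 10 members, up to 3 called genes per list and comparison with the smallest p, 15 Wnt, zonation and aryl hydrocarbon genes whether called or not, and the 3 genes most alike to Glul, Cyp1a2 and Axin2. Alb, Apoa1, Apoa2, Ttr, Spp1, Sox9, Krt19, Krt7, Epcam, Cd163, Cfd, Fabp4, Lep, Plin1, Adipoq, Ephb2, Fzd5, Slc13a3, Ugt1a6a, Ugt1a6b, Tiparp, Cyp1b1 and, for HFD against NC, Aldh3a2, Cyp2c54, Myc and Nr1i3 were named after their values were seen. The members and lists were chosen with earlier results of these data known.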

Additional observations from a re-analysis of the deposited data

How the results depend on the processing

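Of the 3 calls in HFD against NC, that of Cyp1a2 held in every alternative except the replicate block. Same-numbered libraries were not clearly alike (correlations of their deviations for HFD and HFD+AE were -0.12, 0.11 and 0.09). Over all 8 same-numbered pairs compared they ran from -0.50 to 0.16, and over 37 other pairs from -0.38 to 0.51. With 3 libraries a group, this cannot exclude that a number marks a shared batch. With the replicate block 0 of the 10 genes and 325 of all genes were called in HFD against NC. The edgeR adjusted p there was 0.052 for Cyp1a2 and Rhbg and 0.14 for Znrf3. Among the named pericentral, periportal, Wnt and aryl hydrocarbon calls in HFD against NC, only those of Apoa4, Avpr1a, Cps1 and Wnt5b held. Losses ran from Nqo1 (0.051) to Myc (0.47). All named calls of the other comparisons were lost too, such as Nr1i3 in HFD+AE against NC (0.19). That block gave 2 genes for HFD+AE and 1 for HFD+RE against HFD, and 1 and 15 against NC. It turned Slc1a2 in HFD against NC (-0.086), Lgr5 in HFD+RE against HFD (0.19), Axin2 in HFD+RE against NC (-0.065), and Tcf7l2 (0.21) and Cyp1a1 (0.051) in HFD against NC; the cause was not tested.

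DESeq2 called 4364 genes in HFD against NC, 2211 for HFD+AE against HFD (4 of the 10), 206 for HFD+RE against HFD, 27 between the training groups, 833 for HFD+AE against NC (1 of the 10) and 2063 for HFD+RE against NC (2 of the 10). Without the filter the counts were 953 (3 of the 10), 43, 2 and 408 for HFD+AE and HFD+RE against HFD, the training groups, and HFD+AE against NC. With only the compared groups fitted they were 4928 for HFD against NC, 649 (1 of the 10) for HFD+AE against HFD, and 82 and 110 for HFD+AE and HFD+RE against NC. There Tcf7l2 in HFD against NC was at 0.0068. With HFD+AE 3 and HFD+RE 3 left out they were 6258 for HFD against NC, 4253 (3 of the 10) and 5 against HFD, 4170 between the training groups and 5989 (2 of the 10) for HFD+RE against NC. In that fit Glul (-0.16) and Tbx3 (-0.010) reversed in HFD+AE against HFD, Slc1a2 (-0.040) in HFD+RE against HFD, and Rhbg (0.52), Lgr5 (-0.17) and Rnf43 (0.0034) between the training groups. Removing the length trend gave 95 genes (1 of the 10) for HFD+AE against HFD and 1 of the 10 for HFD+RE against NC. It turned Tbx3 in HFD+AE against HFD (-0.059), Rnf43 between the training groups (0.053), and Ahr (0.055) and Tcf7l2 (0.24) in HFD against NC.

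Leaving out 1 library at a time moved the genes called to 411 to 4462 for HFD against NC (1 to 3 of the 10), 0 to 1930 for HFD+AE against HFD (0 to 3 of the 10) and 2 to 53 for HFD+RE against HFD. It gave 0 to 2 between the training groups, 44 to 373 for HFD+AE against NC and 112 to 3983 for HFD+RE against NC (0 to 1 of the 10). Log2 changes that crossed 0 ran, in HFD against NC, from -0.30 to 0.052 for Cyp2e1, -0.087 to 0.24 for Slc1a2, -0.22 to 0.11 for Ahr, -0.74 to 0.17 for Cyp1a1, -0.15 to 0.10 for Tcf7l2 and -0.17 to 0.61 for Wnt9b. In HFD+AE against HFD they ran from -0.18 to 0.20 for Glul and -0.026 to 0.30 for Tbx3. In HFD+RE against HFD they ran from -0.30 to 0.031 for Lgr5, -0.046 to 0.37 for Slc1a2 and -0.27 to 0.028 for Tbx3. Between the training groups they ran from -0.14 to 0.14 for Lgr5, -0.61 to 0.23 for Rhbg and -0.21 to 0.17 for Rnf43, and Cyp2e1 in HFD+RE against NC ran from -0.0051 to 0.42. With 3 libraries a group and 21 to 181 counts a library, Rhbg has the least depth of the 10 genes.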
